A study of Rattus norvegicus with 18 samples.

Results

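The genes described here carry symbols given to proteins of the mitochondrial ribosome. They were chosen by symbol alone, as every gene of the deposited table named Mrpl or Mrps with a number and at most 1 further letter, which gave 67 of 13188 genes: 39 Mrpl genes, named for the large subunit, and 28 Mrps genes, named for the small subunit. RNA-seq was made from 18 libraries of the HO15.19 line, Rat1 fibroblasts without functional endogenous myc (myc−/−), in 6 groups of 3. The groups were myc−/− cells without transfection, myc−/− cells transfected with a control siRNA (myc−/− siCtrl), myc−/− cells reconstituted with human MYC without transfection (myc−/− + MYC), and myc−/− + MYC cells transfected with siCtrl or with siAHR-2 or siAHR-5, siRNAs that target Ahr, the gene of the aryl hydrocarbon receptor. Every transfected group received 40 nM siRNA and was harvested after 48 h. All groups come from a single line, and human MYC was expressed from a retroviral vector, so its level was not under the control of the endogenous promoter.

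Mitochondrial ribosomes sit in the mitochondrial matrix and translate the few mRNAs encoded by mitochondrial DNA, which specify core subunits of the respiratory chain and of ATP synthase. Their rRNAs are transcribed inside the organelle, whereas all of their proteins are encoded in the nucleus, made in the cytosol and imported. MYC is a transcription factor that binds E-boxes together with MAX and is known for raising ribosome production and mitochondrial mass in growing cells, and AHR is a ligand-activated transcription factor.

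The deposited log2 values came on 2 scales. A smaller set of 6 libraries held the myc−/− + MYC and myc−/− siCtrl groups, and a larger set of 12 libraries held the other 4 groups. For the 67 genes, the mean of the larger set minus that of the smaller set ranged from −0.08 to 1.48 with a median of 0.80. All comparisons stayed within a set. The smaller set gave myc−/− + MYC minus myc−/− siCtrl. The larger set gave myc−/− + MYC siCtrl minus myc−/−, and, among MYC-expressing cells, siAHR-2 minus siCtrl and siAHR-5 minus siCtrl. By the sample labels, cells with and without MYC also differ in transfection in each set, so that MYC and transfection cannot be told apart. The transfection difference runs in opposite directions in the sets, so a difference between their MYC effects cannot be told apart from it either. The transfection status of the myc−/− cells rests on the labels in both sets and is uncertain: the smaller set pairs siCtrl-labelled cells without MYC with untransfected cells with MYC, the larger set has the reverse, and the columns of the smaller set are named only control and Myc, with no siRNA. If the labels of the myc−/− groups were exchanged, neither MYC comparison would include a transfection difference; this was not tested. The comparisons within the larger set share the 3 myc−/− + MYC siCtrl libraries. A gene was called when it changed by a fold of at least 1.5 in either direction at a limma adjusted p of at most 0.01. A second, wider rule took every gene with a limma adjusted p below 0.05, and "rose" and "fell" below refer to that rule. Nothing in the labels says that the 3 libraries of a group came from separate cultures, so p-values measure only the spread between these libraries.

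Ahr, the gene targeted by the siRNAs, had values of 13.34, 13.26 and 13.22 in myc−/− + MYC siCtrl cells, which dropped to 11.97, 11.97 and 12.03 under siAHR-2 and to 11.95, 11.76 and 11.94 under siAHR-5. Rat Myc was read in every group, at 9.47, 9.29 and 9.16 in myc−/− siCtrl cells and 8.05, 8.08 and 8.01 in myc−/− + MYC cells of the smaller set, and at 10.90, 10.82 and 10.94 in myc−/− cells and 8.16, 8.19 and 8.27 in myc−/− + MYC siCtrl cells of the larger set. The groups labelled myc−/− thus had the higher values. Whether these reads lie outside the disrupted part of the gene is not given in the sources used here, so they do not check that label, and human MYC was not analysed here. The fibroblast gene Vim lay between 18.32 and 19.70 in all libraries and Fn1 between 17.67 and 20.63, whereas Col1a2 lay at only 3.64 to 4.13. Of the markers of other cell types, Epcam (1.22 to 2.42), Cdh1 (3.61 to 4.31), Ptprc (2.84 to 4.65), Tubb3 (0.95 to 1.57) and Rbfox3 (2.27 to 2.78) were low in every library. Others were not, among them Krt8, which lay between 6.02 and 9.05, and Krt19, between 7.30 and 7.73 in the smaller set only (2.42 to 2.46 in the larger). Cd14 lay between 9.91 and 11.44, Pecam1 between 6.47 and 7.57 and Myh11 between 8.49 and 11.44. With MYC, 1 of 4 epithelial genes (Krt8) was called higher in both sets, 1 of 4 leukocyte genes (Cd14) lower in both, 1 of 4 endothelial genes (Tek) higher in the smaller set, both muscle genes, Des and Myh11, lower in both, and 0 of 2 neuronal genes. Of 10 fibroblast genes, 4 were called lower and 1 higher with MYC in the smaller set, and 6 were called lower in the larger set. The log2 of the summed fibroblast level reached 21.02 without MYC and lay between 20.13 and 20.24 with it in the smaller set; it ran from 22.05 to 22.26 without MYC and from 20.42 to 20.44 with it in the larger set. The part of these markers in the results below was not tested.

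One library stood apart for these genes. In myc−/− replicate 2, 65 of the 67 genes were higher than in both other myc−/− libraries, by a median of 0.18 over their mean, whereas 41.2% of all genes were higher than in both others. The median SD of the 67 genes was 0.112 in the myc−/− group and between 0.0291 and 0.0460 in the other 5 groups. The counts of the larger set are therefore also given without this library. It was picked because these genes were high in it, and it belongs to the group without MYC. Leaving it out thus raises the log2FC with MYC of most of them, and the higher counts add no support. For counts in both sets and in smaller groups of genes, no other library was left out.

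**Figure D1:**
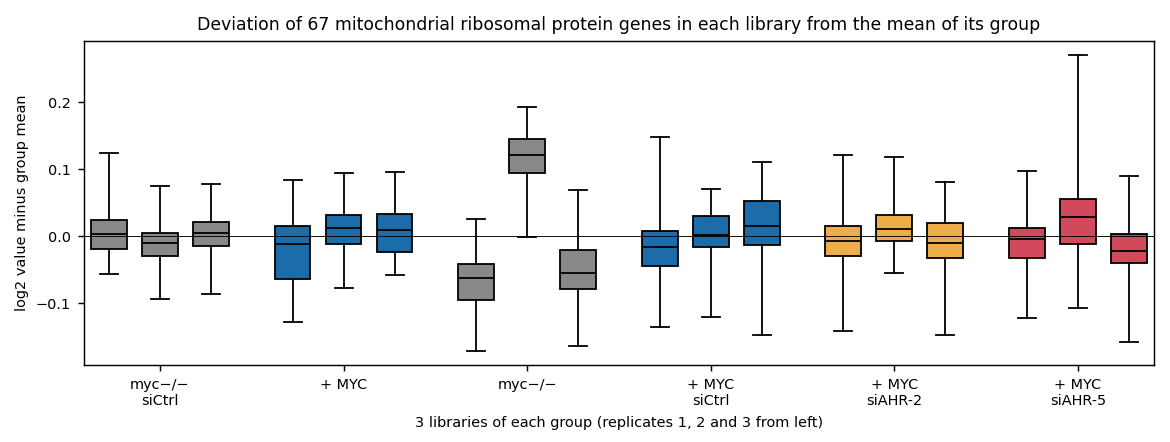
Log2 value of each of the 67 mitochondrial ribosomal protein genes minus the mean of its group (y axis), by library (x axis); boxes show the quartiles and median over genes, and whiskers reach the lowest and highest gene. In myc−/− replicate 2 the median gene lies 0.12 above the group mean, while the medians of the groups other than myc−/− lie between −0.02 and 0.03.

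With MYC, more of the 67 genes rose than fell in both sets, while 18 in the smaller set and 28 in the larger passed in neither direction. In the smaller set, 8 of them were called higher and 0 lower, where 12.5% of all 13188 genes were called higher and 14.3% lower, so that the share called higher (11.9%) was close to that of all genes; 50 members had an unadjusted p below 0.05 in limma. By the wider rule 36 rose and 13 fell, against 37.3% and 39.0% of all genes. The libraries of both groups did not overlap for 37 genes higher and 15 lower with MYC, against 37.9% and 40.9% of all genes. Their median log2FC was 0.155, and that of all genes −0.004. The larger set gave like numbers: 8 called higher and 0 lower (10.8% and 14.7% of all genes), 32 risen and 7 fallen (31.6% and 33.1%; 39 with an unadjusted p below 0.05), and 32 higher and 8 lower without overlap (33.8% and 36.7%), with a median log2FC of 0.154 against −0.0001 for all genes. With 1 library left out, the median in the larger set ran from 0.104 (without myc−/− replicate 1) to 0.210 (without myc−/− replicate 2). Without myc−/− replicate 1, 24 rose, beside 3845 of all 13188 genes. Leaving out myc−/− replicate 3 likewise gave 24 risen, beside 3822 of all genes, and a median of 0.117. Without myc−/− replicate 2, 40 rose and 7 fell (32.9% and 35.5% of all genes), and 44 were higher and 8 lower without overlap (37.1% and 40.5%). Mrps7 was then added to make 9 called higher (10.9% of all genes). The fewest, 23, rose without myc−/− + MYC siCtrl replicate 3, beside 3856 of all genes.

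**Figure D2:**
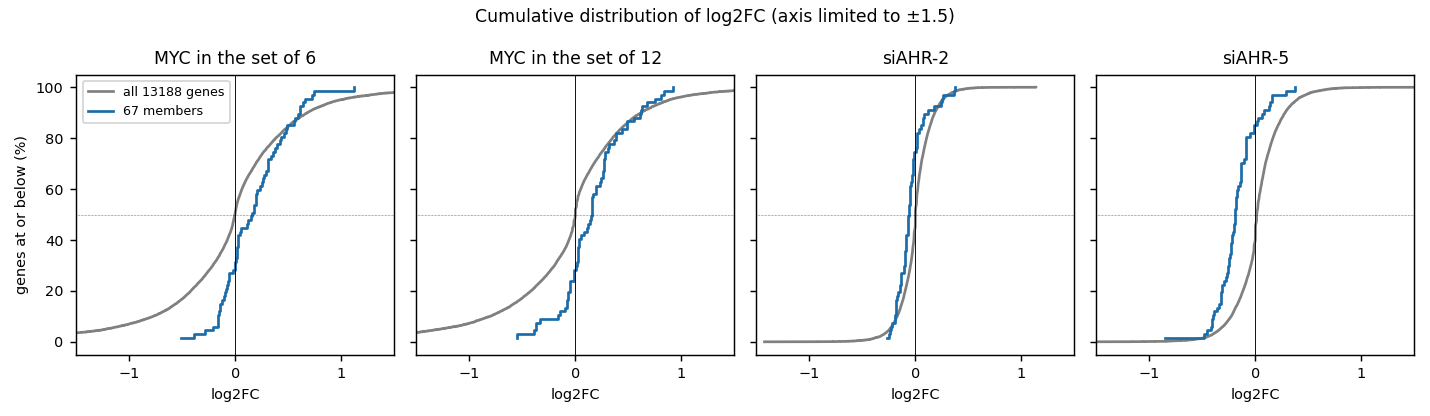
Cumulative percent of genes (y axis) at or below a given log2FC (x axis, limited to ±1.5) for the 67 mitochondrial ribosomal protein genes (blue) and all 13188 genes (grey), in 4 comparisons. With MYC the blue curve is steeper than the grey one and crosses 50% at 0.155 and 0.154; with siAHR-5 it lies to the left and crosses 50% at −0.190.

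The 5 genes called higher in both sets were Mrps27, Mrpl12, Mrps30, Mrps34 and Mrpl50, which is 7.46% of the 67 beside 6.87% of all genes. Mrpl34, Mrps7 and Mrps31 were called only in the smaller set, and Mrpl10, Mrpl38 and Mrps18b only in the larger set. Of these 6, the MYC effects differed between the sets for Mrpl34, Mrpl38 and Mrps18b (limma adjusted p of 6.06e-06, 0.0249 and 0.000977), and the difference did not pass for Mrps7, Mrps31 and Mrpl10 (0.0784, 0.0704 and 0.0561). The sets share no libraries: 24 genes (35.8%) rose in both, which is 24 of 36 and 24 of 32, where 24% of all genes did so. Mrpl2, Mrpl41, Mrpl48 and Mrps18a (5.97%) fell in both, beside 25.3% of all genes. Without myc−/− replicate 2, 6 genes were called higher in both sets with Mrps7 added (8.96% beside 6.92% of all genes), 28 rose in both (41.8% beside 24.7%) and the 4 genes just named fell in both. The span of Mrpl48 overlaps that of Rab6a, which was called lower in both sets (log2FC −0.61 and −0.70). The library kit does not mark strand, and the part of shared reads was not tested. Mrpl18 and Mrpl4 fell in the smaller set and rose in the larger set. As a description, and with genes not being replicates, the log2FC values of the 67 members correlated between sets with Pearson r = 0.702 and Spearman rho = 0.678, beside 0.741 and 0.714 across all genes.

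**Figure D3:**
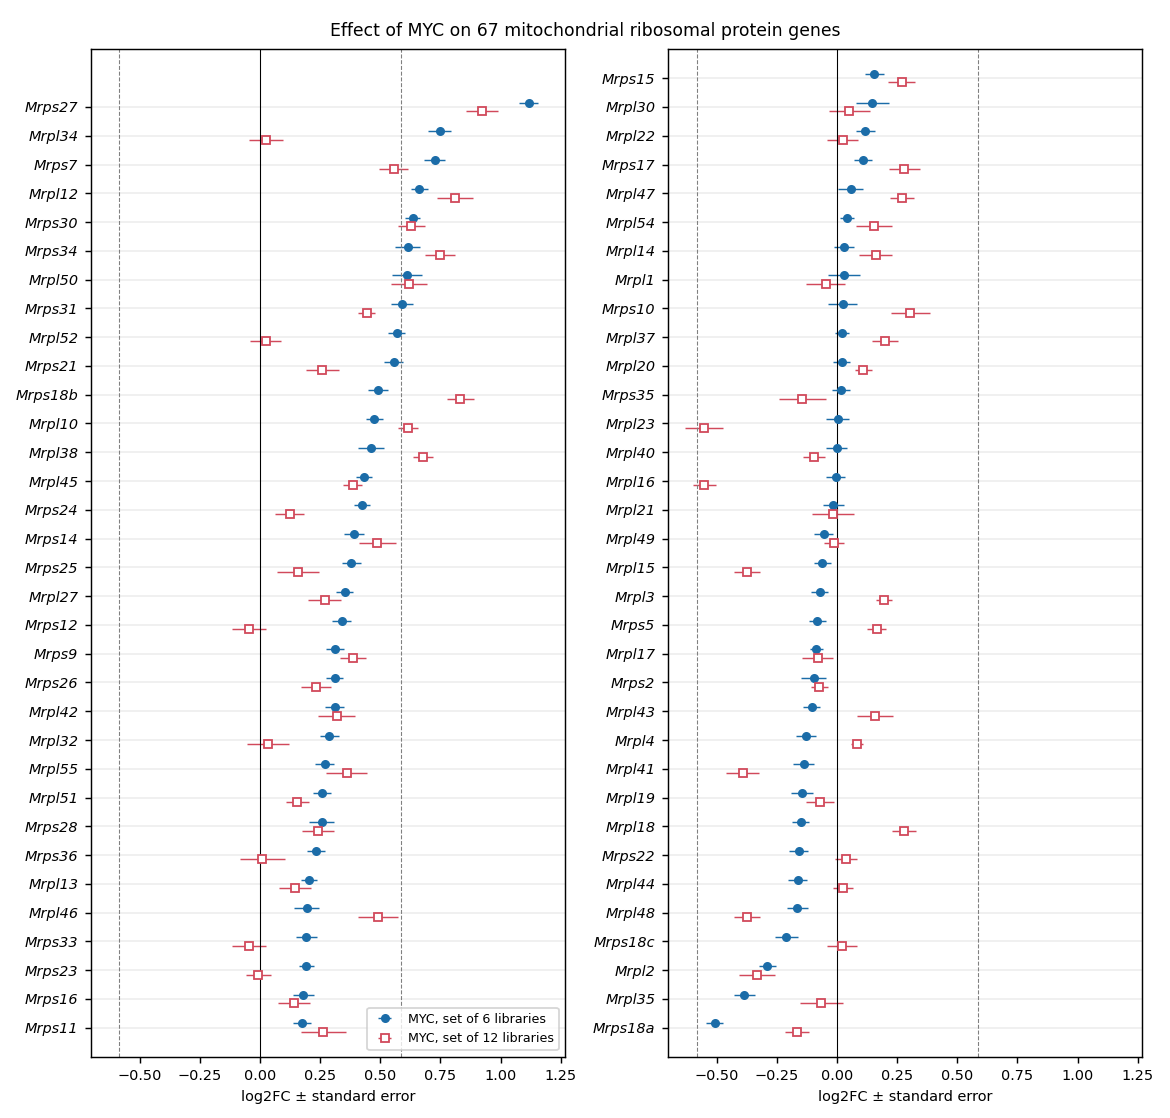
Log2FC with MYC (x axis, ± standard error from limma) of each of the 67 genes (y axis), in the smaller set of 6 libraries (filled circles) and in the larger set of 12 (open squares), ordered by the smaller set; dashed lines mark a fold of 1.5. Mrps27 is at the top in both sets (1.12 and 0.92), Mrpl34 is far apart between them (0.75 and 0.03), and no gene lies beyond the lower line.

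Among the small-subunit proteins, Mrps27 moved furthest. It encodes a pentatricopeptide repeat protein, a class that binds RNA. Its values were 11.09, 11.11 and 11.13 in myc−/− siCtrl cells and 12.16, 12.25 and 12.27 in myc−/− + MYC cells. In the larger set they were 12.40, 12.64 and 12.48 in myc−/− cells and 13.38, 13.44 and 13.48 in myc−/− + MYC siCtrl cells. In both sets every library with MYC lay above every library without it. Mrps27 thus rose by 1.12 ± 0.0402 (standard error) in the smaller set and by 0.92 ± 0.0672 in the larger, folds of 2.17 and 1.90 (limma adjusted p = 4.72e-10 and 6.44e-05). Mrps7, the relative of a bacterial protein of the head of the small subunit, was at 11.16, 11.11 and 11.13 without MYC and at 11.79, 11.91 and 11.89 with it in the smaller set. The groups were well apart, with a log2FC of 0.73 (limma adjusted p = 3.35e-08). In the larger set Mrps7 was at 11.63, 11.86 and 11.75 without MYC and at 12.31, 12.32 and 12.27 with it, again without overlap, and its log2FC of 0.56 (limma adjusted p = 0.000408) narrowly missed the fold cutoff.

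Mrps34, a protein found in mitochondrial and not in bacterial ribosomes, was at 12.46, 12.67 and 12.53 in myc−/− cells and at 13.28, 13.26 and 13.36 in myc−/− + MYC siCtrl cells. These groups did not overlap, and the log2FC was 0.75 (limma adjusted p = 0.000109), beside 0.61 (limma adjusted p = 5.17e-07) in the smaller set. Mrps30 carries the symbol of the small subunit, but its protein is part of the large one. It had 12.62, 12.65 and 12.63 without MYC and 13.29, 13.28 and 13.25 with it in the smaller set. The corresponding values of the larger set were 13.32, 13.49 and 13.29 without MYC and 13.99, 13.99 and 14.0035 with it. Neither set showed overlap, and its log2FC was 0.63 in both sets (limma adjusted p = 4.22e-09 and 0.000145). Mrps31, called in the smaller set only, had a log2FC of 0.59 there and 0.44 in the larger set. Mrps12, whose bacterial relative lines the decoding site, was at 11.51, 11.51 and 11.60 without MYC and at 11.87, 11.90 and 11.86 with it in the smaller set, and rose by 0.34 (limma adjusted p = 1.13e-05). The groups of the larger set overlapped for this gene, at 12.44, 12.55 and 12.33 without MYC and 12.32, 12.38 and 12.48 with it, and the log2FC of −0.05 did not pass (limma adjusted p = 0.589).

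In the large subunit, Mrpl10 and Mrpl12 encode the stalk, the flexible arm that recruits translation factors. Mrpl12 was at 12.77, 12.81 and 12.82 in myc−/− siCtrl cells and at 13.40, 13.49 and 13.50 in myc−/− + MYC cells. The larger set had it at 13.68, 13.88 and 13.63 without MYC and at 14.46, 14.57 and 14.60 with it. The groups did not overlap in either set, and the log2FC was 0.66 (limma adjusted p = 1.36e-08) and 0.81 (limma adjusted p = 0.000194). Mrpl10 was at 12.44, 12.43 and 12.51 without MYC and at 12.96, 12.94 and 12.91 with it in the smaller set. Its larger-set values were 13.15, 13.17 and 13.06 without MYC and 13.69, 13.76 and 13.77 with it. Both stalk genes thus rose in both sets, with a log2FC of 0.48 and 0.61 (limma adjusted p = 1.85e-07 and 4.40e-05) for Mrpl10, of which only the second was called. The span of Mrpl10 overlaps that of Lrrc46, which was called higher in both sets (1.03 and 1.12), and the library kit does not mark strand; the part of shared reads was not tested. Mrpl38 was at 12.58, 12.71 and 12.60 in myc−/− cells and at 13.29, 13.33 and 13.30 in myc−/− + MYC siCtrl cells, which did not overlap, and its log2FC was 0.68 (limma adjusted p = 3.15e-05) beside 0.46 (limma adjusted p = 8.93e-06) in the smaller set. Mrpl50 had a log2FC of 0.61 and 0.62.

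The sets differed most for Mrpl34, the relative of a small bacterial large-subunit protein. It was at 10.63, 10.76 and 10.67 in myc−/− siCtrl cells and at 11.48, 11.40 and 11.41 in myc−/− + MYC cells. In the larger set it was at 10.73, 10.98 and 10.89 in myc−/− cells and at 10.91, 10.88 and 10.89 in myc−/− + MYC siCtrl cells. The groups were apart in the first set and overlapped in the second, with a log2FC of 0.75 and 0.03 (limma adjusted p = 5.80e-08 and 0.782). The difference of −0.72 (standard error 0.0875, limma adjusted p = 6.06e-06) was the only one called among the 67 genes, where 6.79% of all genes were called with a higher and 9.67% with a lower log2FC in the larger set. By the wider rule the log2FC in the larger set exceeded that in the smaller for 16 genes and lay below it for 14, against 24.8% and 30.1% of all genes. Without myc−/− replicate 2 these counts were 26 and 13, beside 3536 and 4272 of all 13188 genes. Without myc−/− replicate 1 they were 10 and 18, beside 3177 and 3875 of all genes. Transfection enters, by the labels, the MYC comparisons of the sets in opposite directions. A difference between the sets thus cannot be told apart from an effect of transfection or of the set.

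Fewer members fell with MYC than rose, and 0 were called lower by limma. Mrpl23 was at 10.33, 10.39 and 10.37 without MYC and at 10.38, 10.39 and 10.33 with it in the smaller set, where the groups overlapped. The larger set had it at 10.70, 10.99 and 10.87 without MYC and at 10.31, 10.28 and 10.30 with it. The groups of that set did not overlap, with a log2FC of −0.55 (limma adjusted p = 0.0012), and the difference between the sets was −0.56 (limma adjusted p = 0.000105). Mrpl16, a protein of the core of the large subunit, showed the same contrast, at 12.02, 11.96 and 12.08 without MYC and 11.98, 12.05 and 12.01 with it in the smaller set. Its larger-set values were 13.48, 13.58 and 13.42 without MYC and 12.91, 12.94 and 12.98 with it. Its log2FC was −0.01 (limma adjusted p = 0.896) and −0.55 (limma adjusted p = 0.000118), and the difference was −0.55 (limma adjusted p = 5.44e-06). The span of Mrpl16 overlaps that of Stx3, which had a log2FC of −0.40 and −1.08, and the part of shared reads was likewise not tested.

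Mrpl2, a core protein of the large subunit near the peptidyl transferase centre, fell in both sets. It was at 11.65, 11.65 and 11.66 without MYC and at 11.38, 11.38 and 11.34 with it in the smaller set, and its log2FC was −0.29 (limma adjusted p = 1.70e-05) there and −0.33 (limma adjusted p = 0.00933) in the larger set. Mrpl41 was at 11.91, 12.15 and 11.99 in myc−/− cells and at 11.64, 11.65 and 11.58 in myc−/− + MYC siCtrl cells, which gave −0.39 (limma adjusted p = 0.00302) beside −0.14 (limma adjusted p = 0.0134) in the smaller set. Neither gene had overlapping groups in either set. Mrpl35 was at 11.30, 11.28 and 11.29 without MYC and at 10.83, 10.95 and 10.92 with it in the smaller set, where it fell by 0.39 (limma adjusted p = 7.78e-06). Its groups overlapped in the larger set, with a log2FC of −0.07 (limma adjusted p = 0.552), and the difference between the sets was 0.32 (limma adjusted p = 0.0108). Mrpl18, which binds the ribosomal 5S rRNA in bacteria, was at 12.22, 12.22 and 12.25 without MYC and at 12.07, 12.05 and 12.11 with it in the smaller set. In the larger set it was at 13.01, 13.16 and 12.99 without MYC and at 13.32, 13.32 and 13.35 with it. The directions were opposite and neither pair of groups overlapped, with a log2FC of −0.15 and 0.28 (limma adjusted p = 0.00166 and 0.00371) and a difference of 0.43 (limma adjusted p = 3.98e-05).

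Mrps18a, Mrps18b and Mrps18c are paralogs, all related to a single bacterial small-subunit protein; in mammals the products of Mrps18b and Mrps18c sit in the small subunit and that of Mrps18a in the large one. Mrps18b was at 12.37, 12.35 and 12.34 without MYC and at 12.75, 12.90 and 12.86 with it in the smaller set. The larger set had it at 12.83, 13.01 and 12.92 without MYC and at 13.69, 13.79 and 13.78 with it. It rose in both, by 0.49 (limma adjusted p = 5.42e-07) and 0.83 (limma adjusted p = 4.79e-05). Mrps18a was at 12.36, 12.36 and 12.32 without MYC and at 11.84, 11.86 and 11.80 with it in the smaller set. Its larger-set values were 12.88, 13.01 and 12.86 without MYC and 12.77, 12.71 and 12.76 with it. It fell in both, by 0.51 (limma adjusted p = 1.03e-07) and 0.17 (limma adjusted p = 0.0259), without overlap of the groups. Mrps18c was at 10.54, 10.53 and 10.54 without MYC and at 10.25, 10.37 and 10.36 with it in the smaller set. In the larger set it was at 11.39, 11.56 and 11.43 without MYC and at 11.45, 11.43 and 11.57 with it. It fell by 0.21 in the first set (limma adjusted p = 0.00202), and in the second the groups overlapped with a log2FC of 0.02 (limma adjusted p = 0.809). Within the smaller set Mrps18b thus rose (log2FC 0.49) while Mrps18a and Mrps18c fell (−0.51 and −0.21).

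**Figure D4:**
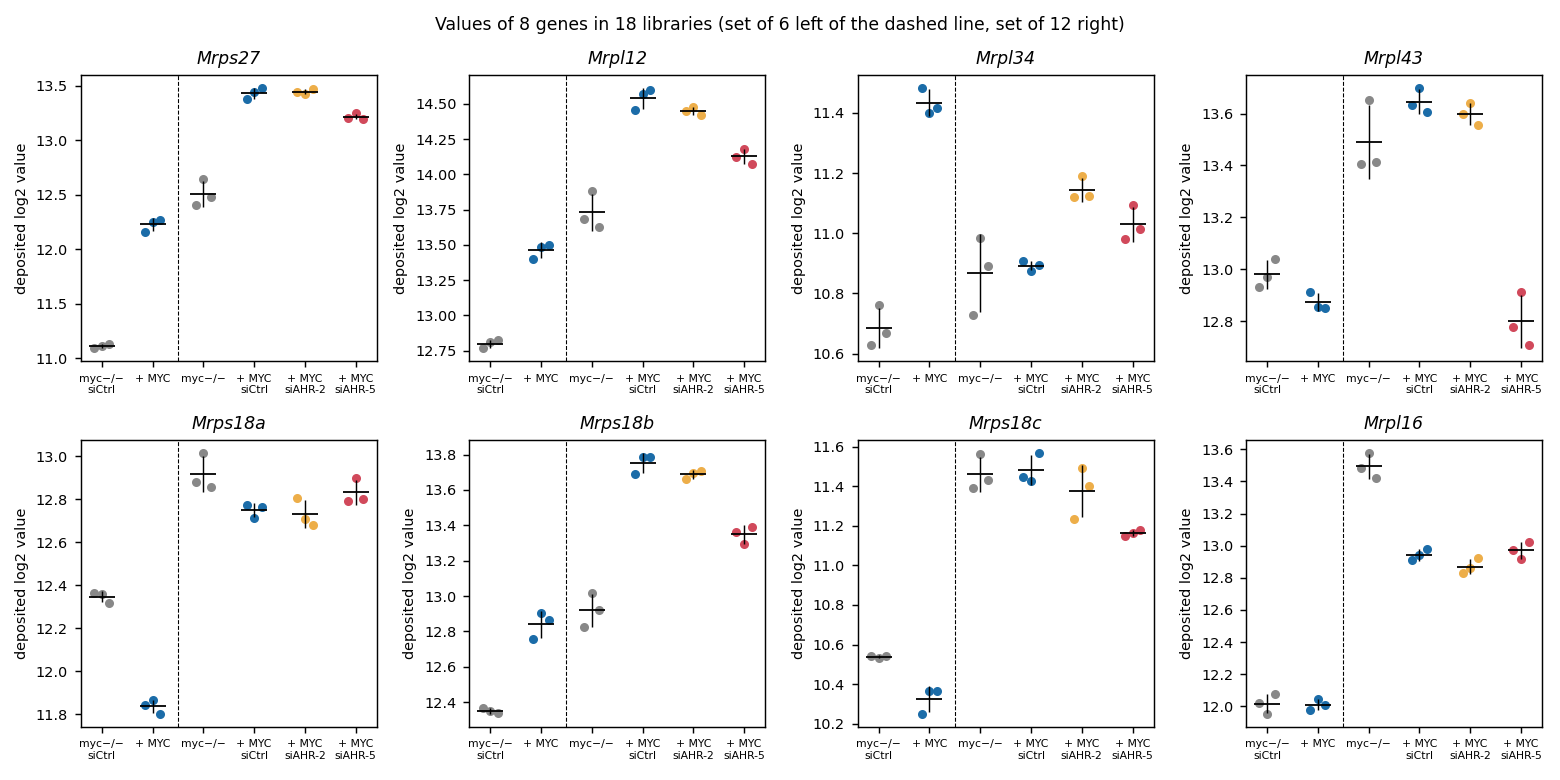
Deposited log2 values (y axis) of 8 genes in each of the 18 libraries by group (x axis); horizontal bars are means, vertical bars ± SD (n = 3), and the dashed line separates the smaller set (left) from the larger set (right), whose levels cannot be compared. Mrps27, Mrpl12 and Mrps18b rise with MYC in both sets, Mrpl34 only in the smaller set, Mrpl16 falls only in the larger set, and Mrpl43 drops with siAHR-5.

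Promoters were read from the RefSeq table of the GRCr8 assembly, which held a window of 300 bases (250 before and 50 after the start) for 52 of the 67 genes. The windows of 4 of the genes above are shown because the Mrps18 paralogs moved in opposite directions and Mrps27 moved furthest. Each is written 5′ to 3′ on the strand of its gene, and capitals mark matches on either strand. The E-box searched was CACGTG. A first variant was CACGCG. Further variants searched were CAAGTG and also CACCTG. Also searched were the ETS-type motif CCGGAAG and a palindrome of the NRF1 type, seen in capitals in the Mrps18b window, and distances run from the start to the first base of a match. The windows are at chr2:32473954-32474253, plus strand (Mrps27), chr9:22367331-22367630, minus strand (Mrps18a), chr20:2842756-2843055, plus strand (Mrps18b) and chr14:9122857-9123156, minus strand (Mrps18c).
Mrps27: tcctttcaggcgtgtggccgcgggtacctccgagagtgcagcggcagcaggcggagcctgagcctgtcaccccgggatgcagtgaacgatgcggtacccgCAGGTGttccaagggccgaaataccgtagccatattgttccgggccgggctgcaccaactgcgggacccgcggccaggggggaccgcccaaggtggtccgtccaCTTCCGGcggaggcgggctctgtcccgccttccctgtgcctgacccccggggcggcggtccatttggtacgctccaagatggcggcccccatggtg
Mrps18a: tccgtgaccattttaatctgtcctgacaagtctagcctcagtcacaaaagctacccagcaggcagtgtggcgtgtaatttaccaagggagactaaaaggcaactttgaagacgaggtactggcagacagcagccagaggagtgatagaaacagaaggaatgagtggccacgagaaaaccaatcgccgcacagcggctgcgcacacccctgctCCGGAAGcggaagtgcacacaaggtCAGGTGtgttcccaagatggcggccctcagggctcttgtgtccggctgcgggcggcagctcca
Mrps18b: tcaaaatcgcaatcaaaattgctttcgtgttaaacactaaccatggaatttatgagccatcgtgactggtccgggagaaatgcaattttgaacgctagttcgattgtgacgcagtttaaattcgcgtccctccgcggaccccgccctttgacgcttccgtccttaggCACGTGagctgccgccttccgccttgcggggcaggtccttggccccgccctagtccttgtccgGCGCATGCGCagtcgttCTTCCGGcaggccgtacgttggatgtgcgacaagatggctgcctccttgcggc
Mrps18c: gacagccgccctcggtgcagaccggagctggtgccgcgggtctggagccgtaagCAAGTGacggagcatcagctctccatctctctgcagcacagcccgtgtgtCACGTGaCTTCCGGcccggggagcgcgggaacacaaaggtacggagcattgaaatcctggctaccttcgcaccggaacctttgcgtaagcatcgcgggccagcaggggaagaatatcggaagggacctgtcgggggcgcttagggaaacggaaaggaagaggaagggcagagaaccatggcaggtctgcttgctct

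The Mrps27 window holds CAGGTG, the reverse complement of CACCTG, 150 bases before the start and the reverse complement of CCGGAAG 46 bases before it. Mrps18a, which fell with MYC, also holds CAGGTG, 13 bases before the start, and CCGGAAG 38 bases before it. Mrps18b, which rose, has CACGTG 83 bases before the start, the NRF1-type palindrome 20 bases and CTTCCGG 3 bases before it. Mrps18c, which did not rise in either set, likewise has CACGTG, 146 bases before the start, with CAAGTG 196 bases and CTTCCGG 139 bases before it. A CACGTG thus stands in the windows of a paralog that rose and of one that fell in the smaller set.

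Of the 52 genes with a window, 5 held CACGTG (Mrpl30, Mrpl4, Mrpl54, Mrps18b and Mrps18c), a share of 9.62%, against 9.06% of the 9842 genes of the table with a window. Only 1 of them, Mrps18b, was called with MYC. CACGCG stood in 11.5% of these genes' windows against 15.9%, CAAGTG in 15.4% against 11.6%, and CACCTG in 17.3% against 19.2%. The ETS-type motif CCGGAAG stood in those of 16 genes, 30.8% against 16%, and the NRF1-type palindrome in those of 4 genes, 7.69% against 1.75%. These motifs were found by their letters alone, with no test, and a match is not a binding site.

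Many of these genes share a start region with a neighbour on the other strand. In the RefSeq table, 18 of the 52 (34.6%) had the start of another gene within 1000 bases in the opposite direction, against 15.9% of the genes of the table. Mrps27 stands beside Ptcd2, which encodes another pentatricopeptide repeat protein of mitochondria and was called higher with MYC in both sets (log2FC 0.63 and 0.75). Mrps7 stands beside Gga3, a gene for a sorting adaptor of the Golgi, which was also called higher in both (0.71 and 0.93). Mrpl46 and Mrps11, 1 of each subunit, face each other and rose together, by 0.19 and 0.17 in the smaller set and by 0.49 and 0.26 in the larger set. Mrpl41 and its neighbour Pnpla7 went apart, since Pnpla7 rose by 2.05 and 1.10 where Mrpl41 fell.

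Split by symbol, the Mrps genes had the higher median log2FC with MYC. In the smaller set, 21 of 28 Mrps genes rose and 3 fell, with a median log2FC of 0.244, and 15 of 39 Mrpl genes rose and 10 fell, with a median of 0.028. As shares, 75% of the Mrps and 38.5% of the Mrpl genes rose and 10.7% and 25.6% fell, where 37.3% of all genes rose and 39.0% fell, so that the share of Mrpl genes that rose was close to that of all genes. In the larger set, 16 Mrps genes rose and 1 fell (median 0.237), and 16 Mrpl genes rose and 6 fell (median 0.0817), beside 31.6% and 33.1% of all genes. Without myc−/− replicate 2, 20 Mrps genes rose and 1 fell (median 0.304), and 20 Mrpl genes rose and 6 fell (median 0.122), beside 32.9% and 35.5% of all genes. The difference between Mrps and Mrpl genes was not tested. Several subunit proteins stand in the table under other symbols and were outside the rule. Of 5 such members under other spellings, 3 rose and 1 fell in each set. Of all genes, 37.3% and 31.6% rose and 39.0% and 33.1% fell. Without myc−/− replicate 2, 4 rose and 1 fell in the larger set (32.9% and 35.5% of all genes). Of these 5, mrpl9, written in lower case, was called higher in both sets (log2FC 1.04 and 0.71), while mrpl11, a neighbour of the stalk, fell by 0.27 and 0.57. Mrp63 rose in the smaller set only (log2FC 0.51) and mrpl24 in the larger set only (0.32). Ict1, the former name of Mrpl58, encodes a peptidyl-tRNA hydrolase that became part of the large subunit. It was at 11.44, 11.34 and 11.42 without MYC and at 11.72, 11.74 and 11.74 with it in the smaller set, a rise of 0.33 (limma adjusted p = 1.38e-05), and it rose by 0.36 (limma adjusted p = 0.00884) in the larger set. Of 5 further subunit genes, among them Dap3 and Ptcd3, 4 rose in the smaller set and 2 in the larger set (37.3% and 31.6% of all genes), and 0 were called by limma, with an unadjusted p below 0.05 for 4 and 2. Without myc−/− replicate 2, 4 of the 5 rose in the larger set (32.9% of all genes).

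The factors that build and serve the ribosome were also more often higher than lower with MYC. Of 25 assembly factors listed, 22 were in the table. Of these, 4 were called higher and 13 rose while 4 fell in the smaller set, and 2 were called higher and 11 rose while 5 fell in the larger set, with medians of 0.218 and 0.214. The shares called higher, 18.2% and 9.09%, stand beside 12.5% and 10.8% of all genes, and are near the background in the larger set. The shares that rose, 59.1% and 50%, stand beside 37.3% and 31.6%. Mrm1 and Mrm3, listed as Rnmtl1, methylate the large rRNA. Mrm1 had a log2FC of 0.97 and 0.41, and Rnmtl1 of 0.70 and 0.92. Noa1, a GTPase of small-subunit assembly, had 0.76 and 0.57, and Rcc1l, listed as Wbscr16, had 0.85 and 0.69. The lowest assembly factors were Rbfa in the smaller set (−0.55) and Mpv17l2 in the larger set (−0.45). Of 15 translation factors, 14 were in the table, and 4 were called higher in the smaller set and 5 in the larger set; 9 rose and 2 fell in each set. The shares called higher, 28.6% and 35.7%, stand beside 12.5% and 10.8% of all genes. In each set 64.3% rose, beside 37.3% and 31.6% of all genes. Without myc−/− replicate 2, the larger set had 4 assembly factors called higher, 12 risen and 4 fallen, and 4 translation factors called higher, 10 risen and 2 fallen, where 10.9% of all genes were called higher, 32.9% rose and 35.5% fell. The elongation factor gene Gfm1 had a log2FC of 0.69 and 0.83, its relative Gfm2, which splits ribosomes after termination, had 0.82 and 0.82, and Tsfm, the exchange factor of the tRNA-carrying factor Tufm, had 0.67 and 0.94. Lrpprc, which stabilises mitochondrial mRNAs, had 0.58 and 0.90, of which the second was called. Guf1 was the lowest translation factor in both sets, at −0.22 and −0.36.

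With each siRNA against AHR, more of the 67 genes fell than rose. With siAHR-2, 0 of them were called in either direction by limma (0.159% of all genes were called higher and 0.311% lower), although 33 had an unadjusted p below 0.05. By the wider rule 7 rose and 17 fell, against 13.7% and 15.5% of all genes, and 8 were higher and 24 lower without overlap (21.5% and 21.8% of all genes). The median log2FC was −0.059, beside 0.000002 over all genes. With siAHR-5, 1 gene was called lower and 0 higher (0.849% and 1.47% of all genes). Here 44 of the 67 fell and 4 rose by the wider rule, where 18.1% of all genes fell and 21.1% rose, and 47 were lower and 6 higher without overlap (22.2% and 28.3%). The median log2FC was −0.190, against 0.013 for all genes. These shifts are small: between the quartiles the log2FC ran from −0.27 to −0.09 with siAHR-5 and from −0.14 to −0.001 with siAHR-2. Markers moved with the siRNAs too: of the 10 fibroblast genes 1 rose and 3 fell with siAHR-2, and 3 rose and 3 fell with siAHR-5, when Thy1 was called higher. The log2 of their summed level was 20.42 to 20.44 with siCtrl, 20.19 to 20.22 with siAHR-2 and 20.15 to 20.17 with siAHR-5. The leukocyte gene Cd14 lay at 9.91 to 10.18 with siCtrl and 9.92 to 10.13 with siAHR-2 but at 10.51 to 10.69 with siAHR-5, where 1 of 4 leukocyte and 2 of 4 endothelial genes rose; no epithelial, muscle or neuronal marker passed the wider rule with either siRNA against siCtrl. The part of these markers in the shift was not tested.

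The siRNAs were compared with each other directly, without the shared siCtrl libraries. With siAHR-5 1 gene was called lower than with siAHR-2 and 0 higher (0.849% and 1.33% of all genes), and by the wider rule 33 genes were lower and 2 higher (17% and 22.1%), and 41 were lower and 3 higher without overlap (22.2% and 27.2%), with a median difference of −0.112. Ahr itself differed between the siRNAs by −0.11, which did not pass (limma adjusted p = 0.211).

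**Figure D5:**
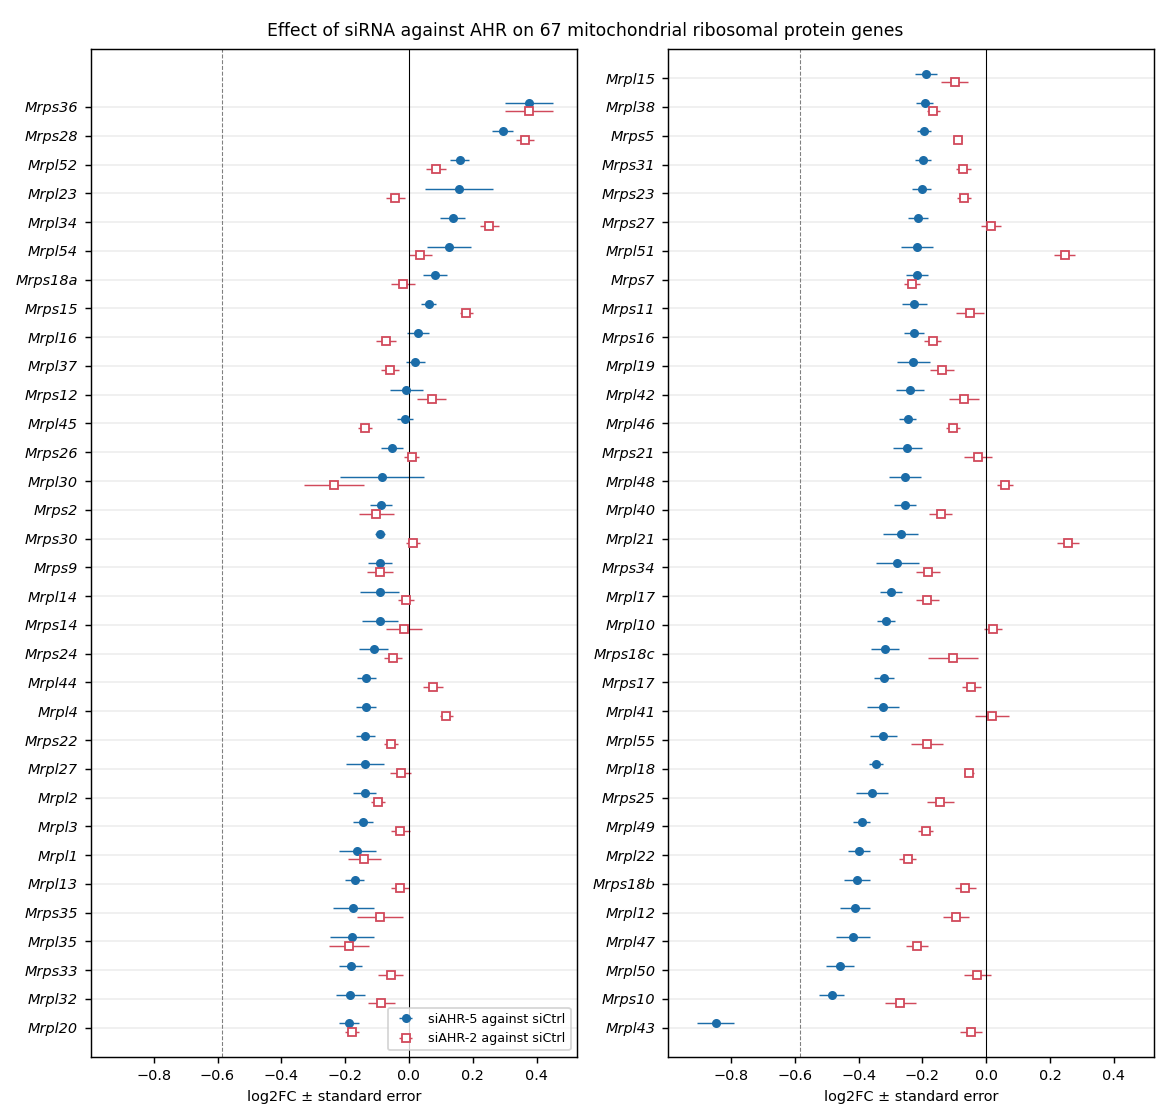
Log2FC with siAHR-5 (filled circles) and with siAHR-2 (open squares) against siCtrl in myc−/− + MYC cells (x axis, ± standard error from limma) of each of the 67 genes (y axis), ordered by siAHR-5; both share the 3 siCtrl libraries, and the dashed line marks a 1.5-fold decrease. With siAHR-5 only Mrpl43 lies beyond the line (−0.85) and 10 of the 67 genes lie above 0; with siAHR-2 17 lie above 0.

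Mrpl43, a large-subunit protein without a bacterial relative, was the only member called with an siRNA against AHR. It was at 13.63, 13.70 and 13.61 with siCtrl, at 13.60, 13.64 and 13.55 with siAHR-2 and at 12.78, 12.91 and 12.71 with siAHR-5. All siAHR-5 libraries lay below all others, while siAHR-2 and siCtrl overlapped. Mrpl43 fell by 0.85 ± 0.0580 (standard error) with siAHR-5 (limma adjusted p = 0.000500) against a change of −0.05 with siAHR-2 (limma adjusted p = 0.363), and the siRNAs differed by −0.80 (standard error 0.0566, limma adjusted p = 0.000374). With MYC, the log2FC of Mrpl43 was −0.11 in the smaller set and 0.16 in the larger. Its span overlaps that of Twnk, the mitochondrial DNA helicase gene, listed as Peo1, and the library kit does not mark strand. Peo1 had a log2FC of −0.03 with siAHR-5 (limma adjusted p = 0.262) and 0.06 with siAHR-2 (limma adjusted p = 0.0227).

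Mrps36 and Mrps28 were the highest members with either siRNA. Mrps36, long counted with the small subunit, encodes a component of the 2-oxoglutarate dehydrogenase complex. It was at 12.21, 12.06 and 11.91 with siCtrl, at 12.45, 12.43 and 12.42 with siAHR-2 and at 12.44, 12.42 and 12.43 with siAHR-5. Mrps28 was at 11.08, 11.04 and 11.12 with siCtrl, at 11.46, 11.44 and 11.44 with siAHR-2 and at 11.34, 11.40 and 11.38 with siAHR-5. For both, every library with an siRNA against AHR lay above every siCtrl library. Mrps36 had a log2FC of 0.38 with siAHR-2 (limma adjusted p = 0.017) and 0.37 with siAHR-5 (limma adjusted p = 0.0123), and Mrps28 of 0.36 and 0.29 (limma adjusted p = 0.00106 and 0.00186).

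Mrps10 and Mrpl22 were the lowest with siAHR-2, relatives of bacterial proteins of the small-subunit head and of the exit tunnel. Mrps10 was at 11.26, 11.35 and 11.33 with siCtrl, at 10.98, 11.03 and 11.12 with siAHR-2 and at 10.87, 10.81 and 10.80 with siAHR-5. Mrpl22 was at 12.62, 12.71 and 12.66 with siCtrl, at 12.43, 12.41 and 12.41 with siAHR-2 and at 12.28, 12.30 and 12.22 with siAHR-5. In both genes the 3 groups were fully apart, with siCtrl highest and siAHR-5 lowest. Mrps10 fell by 0.27 (limma adjusted p = 0.0117) and 0.49 (limma adjusted p = 0.000694), and Mrpl22 fell by 0.25 (limma adjusted p = 0.00266) and 0.40 (limma adjusted p = 0.000804). For Mrpl22 the overlapping gene Gemin5 had −0.29 and −0.31. Gemin5 differed between the siRNAs by −0.01, which did not pass (limma adjusted p = 0.499), unlike Mrpl22. The part of shared reads was not tested.

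Members that rose and members that fell with MYC were both among those lower with siAHR-5. The smaller set shares no library with the siRNA comparisons: of its 36 members that rose 24 fell with siAHR-5, of its 13 that fell 11 did, and of its 8 called higher 7 did, while Mrpl34 rose, beside 44 of all 67. Mrpl12 was at 14.12, 14.18 and 14.08 with siAHR-5 and at 14.45, 14.48 and 14.42 with siAHR-2, with a log2FC against siCtrl of −0.41 and −0.09 (limma adjusted p = 0.00182 and 0.149). Mrpl10 was at 13.40, 13.44 and 13.44 with siAHR-5 and at 13.73, 13.76 and 13.79 with siAHR-2, with a log2FC of −0.31 and 0.02 (limma adjusted p = 0.0009 and 0.666). The siRNAs differed for both stalk genes, by −0.32 (limma adjusted p = 0.00108) and −0.33 (limma adjusted p = 0.000361). Mrps27 had a log2FC of −0.21 with siAHR-5 and 0.02 with siAHR-2, and Mrpl50 of −0.46 and −0.03. Mrps27 at 13.21, 13.25 and 13.20 and Mrps18b at 13.36, 13.29 and 13.39 with siAHR-5 both lay above all myc−/− libraries, whereas Mrpl50 at 11.85, 11.75 and 11.82 overlapped the myc−/− values of 11.58, 11.80 and 11.56. These levels with siAHR-5 were not tested against myc−/− cells.

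Mrpl4, Mrpl21 and Mrpl51 took opposite directions with the siRNAs. Mrpl21, near the exit tunnel, was at 11.84, 11.87 and 11.93 with siCtrl, at 12.15, 12.16 and 12.09 with siAHR-2 and at 11.53, 11.71 and 11.59 with siAHR-5. The 3 groups did not overlap, and the log2FC was 0.26 (limma adjusted p = 0.00449) and −0.27 (limma adjusted p = 0.0126). Mrpl51 had a log2FC of 0.25 and −0.22 (limma adjusted p = 0.00512 and 0.0198), and Mrpl4 of 0.12 and −0.13 (limma adjusted p = 0.0104 and 0.0191). Of the Mrps18 paralogs, Mrps18b and Mrps18c fell with siAHR-5, by 0.41 (limma adjusted p = 0.00115) and 0.32 (limma adjusted p = 0.00358), and Mrps18a did not pass with either siRNA (log2FC 0.08 with siAHR-5 and −0.02 with siAHR-2).

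Among the 22 assembly factors 1 rose and 1 fell with siAHR-5, with a median log2FC of −0.047, and 3 rose and 2 fell with siAHR-2. Of all genes 21.1% rose and 18.1% fell with siAHR-5, and 13.7% and 15.5% with siAHR-2, which holds for the lists that follow too. Of 14 translation factors 7 fell and 0 rose with siAHR-5 (median −0.106), with Gfm2 lowest at −0.52 (limma adjusted p = 0.000501). With siAHR-2, 2 of these rose and 2 fell. Of the 5 subunit genes with other symbols 3 fell with each siRNA, Ptcd3 by 0.41 and Chchd1 by 0.48 with siAHR-5. Of the 5 members of the ribosome spelled otherwise in the table, mrpl11, mrpl24 and Mrp63 fell with siAHR-5, by 0.29, 0.36 and 0.18, and 0 rose, while with siAHR-2 mrpl9 rose by 0.28 and mrpl11 and Ict1 fell. Ict1 was at 12.07, 12.13 and 12.18 with siAHR-2 and at 12.50, 12.54 and 12.50 with siAHR-5, beside 12.59, 12.69 and 12.55 with siCtrl. It fell with siAHR-2 by 0.49 (limma adjusted p = 0.00182), the change with siAHR-5 was −0.10 (limma adjusted p = 0.12), and it was higher with siAHR-5 than with siAHR-2 by 0.39 (limma adjusted p = 0.000632).

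Reads of some members can be shared with other loci. By the RefSeq annotation, 16 of the 67 spans overlap another gene and 24 members have named pseudogenes or copies, Mrpl30 with 9. How reads were assigned between such copies is not given in the sources used here, and the values of these genes are uncertain to that extent.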

How the data were processed

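RNA-seq of 18 libraries in 6 groups of 3 was used, with groups and replicate numbers taken from the sample labels. The authors sequenced poly-A RNA with a kit that does not mark strand, aligned the reads to rn6 with HISAT2 2.1.0, dropped genes with few reads and normalized the rest with DESeq2, and the deposited table holds log2 values of 13188 genes, labelled as log CPM. Off the log scale a library sums to between 86.3 and 160.8 times what CPM would give, so the transformation is unknown, as is the depth behind each value. The read counter and annotation are not given in the sources used here.

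Each comparison was fitted by limma 3.58.1 (R 4.3.3, linear models with moderated variances and a trend on the mean) to the groups compared alone, over all 13188 genes, adjusting p-values over all of them by Benjamini-Hochberg. The difference of the MYC effects was fitted on 12 libraries in 4 groups. Cutoffs were a fold of 1.5 with an adjusted p of 0.01, and, as the wider rule, an adjusted p below 0.05. Alternatives were the cutoff, all groups in one fit, no trend, quantile normalization, centring on the median, a minimum mean of 1, a pseudocount of 1, a replicate block and leaving out each library; counts by the wider rule under these were added after seeing the data. No library pair held identical values. Library values are given for the 5 highest and 3 lowest members in each MYC comparison, the members called with an siRNA (if none, the 2 highest and 2 lowest), the 3 largest differences of MYC effects in each direction, the Mrps18 paralogs, Mrpl10, Mrpl12, Mrps12 and Mrpl58; other genes given with values, such as Mrpl21, were picked after their values were seen. The members, lists (assembly factors, translation factors, subunits with other symbols, cell type markers) and motifs were chosen with earlier results of these data known. Members under other spellings were added after seeing the table. Symbols were matched to RefSeq tables of GRCr8, another assembly than that of the files, used for names, neighbours and promoter windows. Plots used matplotlib 3.10.9 (Python 3.11.15).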

Additional observations from a re-analysis of the deposited data

Results flagged for a closer look

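For Mrpl34 the effect of MYC differed between the sets of libraries, with 0.75 in the smaller and 0.03 in the larger one (log2FC) and a tested difference of −0.72 (limma adjusted p = 6.06e-06). It stayed between −0.79 and −0.66 when any 1 library was left out. Since transfection, by the labels, runs in opposite directions in the sets, this difference cannot be told apart from an effect of transfection. For Mrpl43 the effects of the siRNAs differed, with a log2FC of −0.85 with siAHR-5 and −0.05 with siAHR-2 and a tested difference of −0.80 (limma adjusted p = 0.000374), which lay between −0.86 and −0.75 with any 1 library left out.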

How the results depend on the processing

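The call of Mrpl43 with siAHR-5 and against siAHR-2, and that of Mrpl34 for the difference of the MYC effects, held under every alternative run, and 0 members were called with siAHR-2 in any that kept the fold cutoff. The rule for calls moved the counts most: with an adjusted p below 0.05 and no fold cutoff, 36 members were higher and 13 lower with MYC in the smaller set, 32 and 7 in the larger set, 7 and 17 with siAHR-2, 4 and 44 with siAHR-5, 2 and 33 with siAHR-5 against siAHR-2, and 16 and 14 for the difference of the MYC effects. Centring each library on its median left 5 members called higher in the smaller set (Mrpl50, Mrps31 and Mrps34 lost), beside 1492 of all 13188 genes. It gave medians with MYC of 0.112 in the smaller set and 0.196 in the larger. The other medians were −0.090 with siAHR-2, −0.250 with siAHR-5, −0.140 between the siRNAs and 0.091 for the difference. The medians of all genes moved the same way, to −0.046, 0.043, −0.031, −0.046, −0.020 and 0.070. With MYC in the larger set 38 members then rose, beside 5565 of all genes. By the wider rule 8 members then had a smaller MYC effect in the larger set, beside 3018 of all genes. With siAHR-2, 31 members then fell, beside 3487 of all genes (2047 before centring). With siAHR-5, 2 members rose, beside 2138 of all genes, and 1 was higher than with siAHR-2, beside 2537 of all genes. With all groups in one fit 11 members fell with siAHR-2, beside 1662 of all 13188 genes, and 1 was higher with siAHR-5 than with siAHR-2, beside 2613 of all genes. No scaling moved the median of all genes by 0.1. Quantile normalization lost Mrpl50 and Mrps31 and gained Mrpl52 and Mrps21 in the smaller set, and it and centring gained Mrps7 in the larger set.

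With 1 library left out, 5 to 9 members were called higher with MYC in the smaller set at a median of 0.134 to 0.173; the lowest count came without myc−/− + MYC replicate 2, when Mrpl50, Mrps31 and Mrps34 were lost. For MYC in the larger set, 6 to 9 were called higher and 0 to 1 lower: without myc−/− replicate 1 Mrpl50 was lost and Mrpl23 called lower, and without myc−/− replicate 3 Mrpl10 and Mrpl50 were lost and Mrpl16 called lower. For the difference of the MYC effects the median ran from −0.034 to 0.070, and 1 to 3 members were called smaller (Mrpl23 and Mrpl52 added without myc−/− replicate 1). By the wider rule 10 to 26 were larger and 9 to 18 smaller. The 10 came without myc−/− replicate 1 (3177 of all 13188 genes) and the 26 without myc−/− replicate 2 (3536 of all genes). The 9 came without myc−/− siCtrl replicate 2 (3698 of all genes). By the wider rule 0 to 3 members were higher with siAHR-5 than with siAHR-2. The 0 came without siAHR-2 replicate 2 or replicate 3 (2235 and 2282 of all genes) and the 3 without siAHR-5 replicate 2 (3050 of all genes). Values near 0 changed sign: Mrps12 with MYC in the larger set (0.0073 after quantile normalization, −0.101 to 0.0075 with 1 library left out), Mrps18c there (−0.023 to 0.071), Mrpl10 with siAHR-2 (−0.0046 to 0.035), Mrps18a with siAHR-2 (−0.056 to 0.0058) and Mrps12 with siAHR-5 (−0.047 to 0.035). The cause of these changes was not tested. Centring also put Mrpl10 with siAHR-2 at −0.011. It moved the median of all genes there to −0.031, so that sign change says nothing about Mrpl10 itself. Deviations of same-numbered libraries from their group means correlated weakly across genes (from −0.26 to 0.24). With siAHR-5 against siCtrl, replicates 1 and 2 matched their own number best (0.22 and 0.14), and replicate 3 did not (−0.06). With MYC no library did so in either set. Such correlations cannot exclude a pairing by culture or batch, so whether the numbers pair libraries is not settled. With the replicate number as a block no call of a member changed. The genes called by limma with siAHR-2 over the whole table then went from 21 higher and 41 lower to 0 and 0, with 5030 genes at an unadjusted p below 0.05. By the wider rule 1 member was then higher with siAHR-5 than with siAHR-2, beside 2660 of all genes. The depth behind the values is unknown and sets no stated limit here.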
